A study of Rattus norvegicus with 39 samples.

Results

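The solute carrier genes are the members of the Slc families, which encode the membrane carriers that move ions, amino acids, nucleosides, metals, vitamins and metabolites into and out of cells and organelles. They were taken as every identifier of the count table that could be paired with a symbol beginning with Slc and that had at least 10 counts in 5 or more libraries. Of 23978 identifiers, 1966 could be paired, 41 of these carried an Slc symbol, and 34 passed the count rule. The pairs came from tables ordered by identifier and read only in part, so the 34 genes are not the whole superfamily. The 7 that failed the rule were Slc10a6, Slc25a47, Slc44a4, Slc51a, Slc5a10, Slc5a4b and Slc6a4, the last being the serotonin transporter, which had at most 2 counts in any library.

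Carriers of this kind set which substrates a neuron can take up, export or store. Slc29a4, the plasma membrane monoamine transporter, clears dopamine and serotonin with low affinity and high capacity, and Slc7a1 brings in arginine and lysine. Slc8a2 exchanges sodium for calcium at the plasma membrane, and carriers of family 25 sit in the inner mitochondrial membrane. In the nucleus accumbens (NAc) most neurons are medium spiny neurons (MSNs) of the D1 or D2 dopamine receptor type, and both types use the general carriers of metals, sugars and vitamins.

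The study asked how repeated ketamine and the stage of the estrous cycle affect mRNA in translation in D1-MSNs and D2-MSNs. The animals were female Long Evans rats, heterozygous for Drd1a-iCre (D1) or Drd2-iCre (D2), which carried in the NAc an AAV9 with a Cre-dependent, HA-tagged ribosomal protein Rpl22. Polyribosomes were pulled down with an HA antibody from NAc punches, 1 library per rat. Rats received 6 injections of saline or of 10 mg/kg ketamine, in proestrus or in diestrus, about 4 days apart. Tissue was taken drug-free 4 days after the last injection, following 30 min in the drug-paired context. The 39 libraries fall into 8 groups of 5, except D2 proestrus ketamine with 4, from which the authors had excluded 1 library as an outlier in a principal component analysis. Every group, saline rats included, had the virus, the tag, the injections and the context. Ketamine-treated rats had been selected by the authors for a locomotor response, and which cells carry the tag depends on the Cre line and the virus. In such IP libraries, fewer tagged cells of a type and less RNA per cell cannot be told apart.

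For 26 of the 34 genes a start site was listed in RefSeq (build GRCr8, whereas the counts were made on mRatBN7.2). The 250 bases upstream of the start are printed for those carriers with an entry that were called in both cell type comparisons below (Slc26a8 and Slc49a4) or with a D2 bias under ketamine (Slc26a8, Slc29a4 and Slc7a1). They run 5′ to 3′ on the strand of the gene. Capitals mark the GC box GGGCGG and the CCAAT box CCAAT on either strand.
Slc26a8, chr20:6751185-6751434, minus strand: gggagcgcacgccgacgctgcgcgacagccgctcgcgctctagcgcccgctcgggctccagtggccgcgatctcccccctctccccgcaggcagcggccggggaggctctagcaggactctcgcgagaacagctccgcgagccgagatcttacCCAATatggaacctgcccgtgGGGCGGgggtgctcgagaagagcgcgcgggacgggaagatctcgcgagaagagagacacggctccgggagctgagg
Slc29a4, chr12:16988339-16988588, minus strand: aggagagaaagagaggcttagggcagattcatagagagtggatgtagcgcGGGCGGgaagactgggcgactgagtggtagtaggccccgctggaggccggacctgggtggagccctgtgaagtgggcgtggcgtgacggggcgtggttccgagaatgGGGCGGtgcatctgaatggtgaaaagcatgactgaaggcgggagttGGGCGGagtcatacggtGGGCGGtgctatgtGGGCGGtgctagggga
Slc7a1, chr12:11664238-11664487, plus strand: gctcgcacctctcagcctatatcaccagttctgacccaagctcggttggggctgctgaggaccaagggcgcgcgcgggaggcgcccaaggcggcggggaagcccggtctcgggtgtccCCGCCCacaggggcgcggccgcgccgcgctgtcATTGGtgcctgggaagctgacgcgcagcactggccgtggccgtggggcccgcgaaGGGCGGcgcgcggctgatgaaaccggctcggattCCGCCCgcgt
Slc49a4, chr11:78500710-78500959, plus strand: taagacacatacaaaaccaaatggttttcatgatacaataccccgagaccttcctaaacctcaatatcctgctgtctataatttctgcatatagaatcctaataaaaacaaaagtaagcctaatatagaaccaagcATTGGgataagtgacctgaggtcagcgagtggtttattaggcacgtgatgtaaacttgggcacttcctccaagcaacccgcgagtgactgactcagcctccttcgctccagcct
The Slc29a4 window held 5 GC boxes and no CCAAT box, that of Slc7a1 held 3 GC boxes and 1 CCAAT box, that of Slc26a8 held 1 of each, and that of Slc49a4 held 1 CCAAT box and no GC box. Over the 26 windows, 17 had a GC box and 14 a CCAAT box. Among all 33469 listed promoters the shares were 30.5% and 34%, and among the 1339 of the paired genes passing the same count rule they were 59.4% and 35.6%. The E-box CACGTG was found in 2 of the 26, 1 of them Slc49a4, against 5.59% of all promoters and 11% of those of the paired genes. TATAAA, TGACGTCA and GGTCANNNTGACC, also searched on both strands, were found in 0 of the 26, in 12.9%, 1.59% and 0.0239% of all promoters, and in 6.42%, 2.61% and 0% of those of the paired genes. Slc25a30, called below, was among the genes without an entry.

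Total counts per library ran from 2396517 (D2 diestrus saline, library 39) to 43224256, with a median of 20494896, and no pair of libraries within a group held identical values. Library 33 of D1 proestrus saline stood apart: the chi-square per degree of freedom between its counts and those of the 4 others of its group was 156.5 to 201, against at most 59.1 in the other 72 pairs within groups, and its TMM factor was the lowest, at 0.905. Without it, 10 carriers were called between cell types in saline, beside 26.7% of all genes, in place of the 8 given below. Adora2a, the adenosine receptor gene of D2-MSNs and the 1 D2 marker that could be paired, had a median of 177.9 normalized CPM in D1 saline and 947.9 in D2 saline libraries (775.7 to 1063). In ketamine its medians were 183.6 in D1 and 795.3 in D2, where the libraries spread more widely, from 452.5 to 1012. None of the listed D1 markers could be paired. The summed interneuron markers Sst and Nos1 were higher in D1 libraries. They lay at 269.7 to 837.4 CPM in D1 saline against 72.45 to 289.8 in D2 saline. In ketamine they lay at 246 to 702.6 in D1 against 88.2 to 246.6 in D2. The part of interneurons in the results, those with a D1 bias included, was not tested. The median sums of 5 marker lists of non-neuronal cells (astrocyte, oligodendrocyte lineage, microglia and leukocyte, endothelial and mural, fibroblast) were higher in D2 than in D1 libraries at both treatments, within overlapping ranges, and their part in the results was not tested. In saline, the 4 astrocyte markers summed to 97 to 138.5 CPM in D1 and 118.7 to 243.3 in D2, the 2 endothelial and mural markers to 3.011 to 6.319 and 3.332 to 14.93, and the 2 fibroblast markers to 1.211 to 2.61 and 2.442 to 17.75. In ketamine the astrocyte sums were 105 to 147.6 in D1 and 116.2 to 191.8 in D2, the endothelial and mural sums 2.956 to 5.657 and 4.142 to 11.03, and the fibroblast sums 1.141 to 3.253 and 1.714 to 8.574. The 3 oligodendrocyte lineage markers summed to 144.2 to 237.4 in D1 and 185.1 to 370.3 in D2 in saline, and to 165.6 to 236.6 and 163.8 to 340.3 in ketamine. The 3 microglia and leukocyte markers summed to 1.327 to 2.693 and 1.388 to 6.247 in saline, and to 1.6 to 3.064 and 1.53 to 3.854 in ketamine. Kl, the 1 choroid plexus marker that could be paired, had medians of 6.25 in D1 and 7.52 in D2 in saline, and of 7.65 and 7.22 in ketamine, where D2 was thus not the higher.

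Values of single genes are CPM, the counts of a gene relative to the size of its library, after TMM normalization over the 39 libraries (normalized CPM). They are not divided by transcript length, so each gene is compared across groups and not with other genes. The mean of a carrier over the 39 libraries ran from 0.579 CPM for Slc12a8, which had a median of 9 counts, to 253.5 CPM for Slc30a9, a zinc carrier. Rats of 1 group differed little in several of the well-counted carriers, but not in all. The median within-group coefficient of variation was 4.51% for Slc25a11, the mitochondrial oxoglutarate and malate carrier, and 5.65% for Slc8a2. For Slc29a4, at a mean of 33.1 CPM, it was 16.1%, and for Slc26a8, at 26.1 CPM, 15.2%. It was 43.6% for Slc12a8, a member of the cation-chloride cotransporter family, 42.8% for Slc40a1, the iron exporter ferroportin, and 38.2% for Slc8b1, a mitochondrial sodium-calcium exchanger. Slc4a4, a sodium bicarbonate cotransporter of astrocytes, varied by 22.9% at a mean of 14.7 CPM, more than Slc37a1 at 15.2 CPM with 9%.

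**Figure D1:**
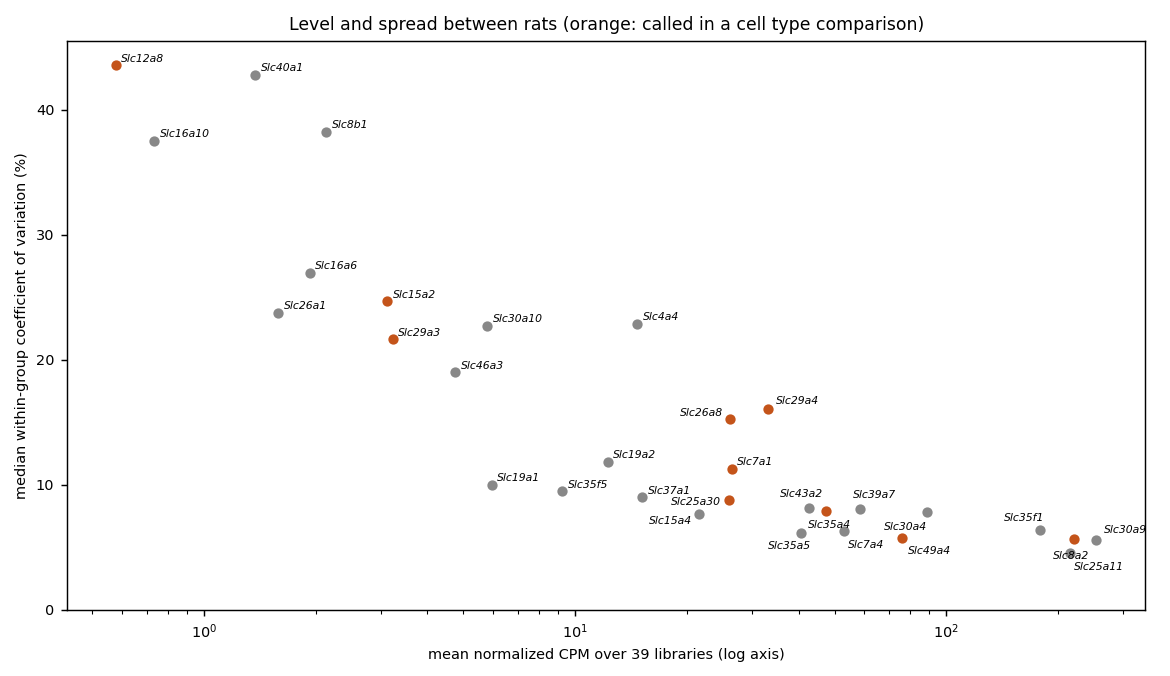
Mean normalized CPM over 39 libraries (log axis) against the median, over the 8 groups, of the coefficient of variation between rats (%), 1 point for each of 31 solute carrier genes. The spread lies between 4.51% and 43.6%, with the widest at the lowest levels, and the genes called in a cell type comparison (orange) lie at low and high levels.

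The first question was which carriers differ between D2-MSNs and D1-MSNs without drug. Among saline-treated females, 8 of the 34 carriers were called differentially expressed (DE), which here means that the Benjamini-Hochberg adjusted p of the edgeR quasi-likelihood test was under 0.1. A D2 bias was found for 5 and a D1 bias for 3. Of all 13689 genes tested, 28.8% were called (14.6% with a D2 bias and 14.1% with a D1 bias), and of the paired genes 30.6%. The carriers' 23.5% was below these shares in this fit, but the order depended on the fit. DESeq2 called 8 carriers beside 30% of all genes. In 1 model of all libraries 7 were called beside 13.1%, and without library 39, 8 beside 13.9%, where the carriers' share was the higher. Among ketamine-treated females, 9 carriers (26.5%) were called, 4 with a D2 bias and 5 with a D1 bias. Beside them stood 18.0% of all 13850 genes tested (8.16% with a D2 bias and 9.83% with a D1 bias) and 18.4% of the paired genes. Most differences were small. The median absolute log2 fold change over the 34 was 0.09 in saline and 0.12 in ketamine, and 4 and 6 carriers exceeded 0.3.

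**Figure D2:**
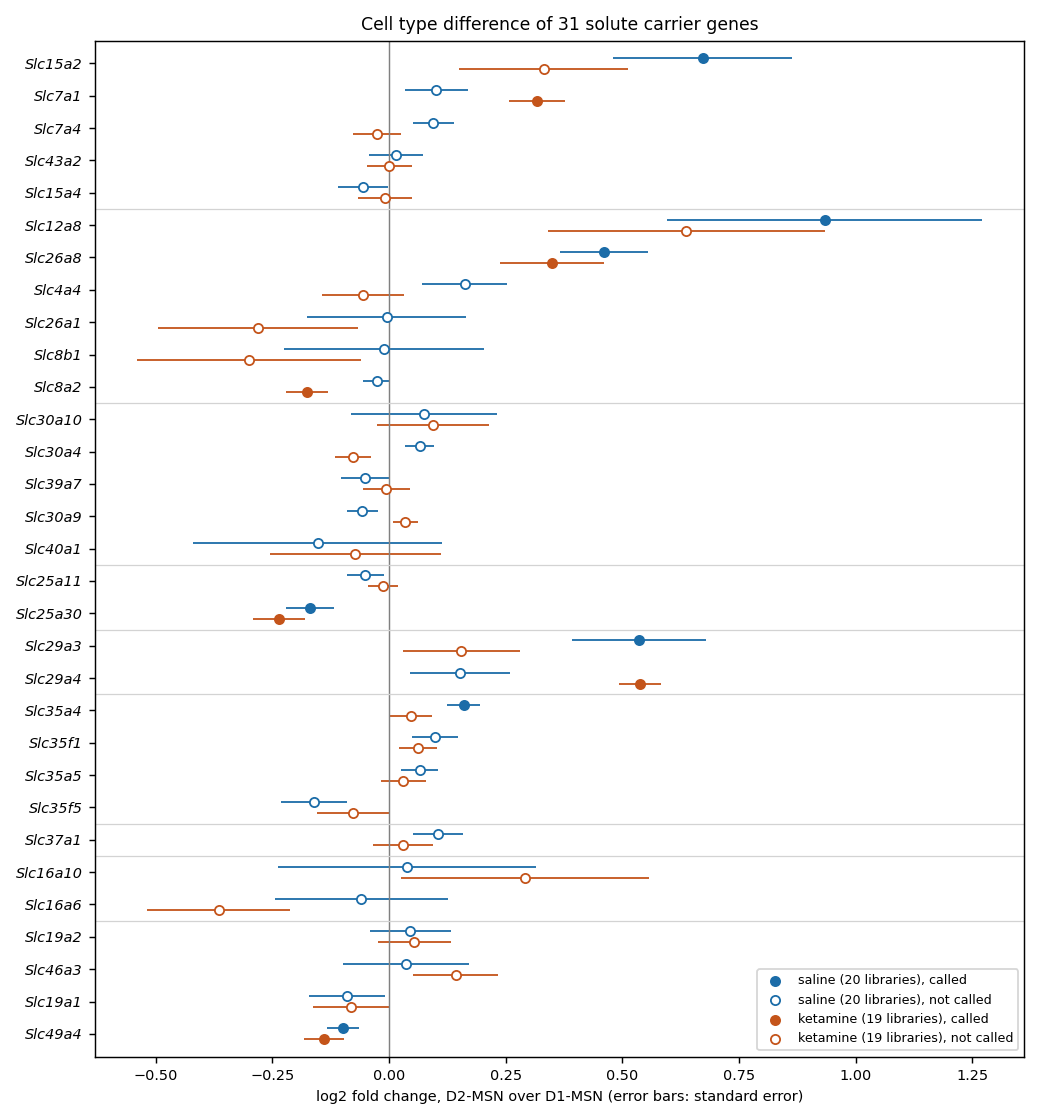
Log2 fold change of D2 over D1 for 31 solute carrier genes in saline (blue, 20 libraries) and ketamine (orange, 19 libraries), with standard errors. Filled points were called, and grey lines separate functional classes. The values run from -0.37 for Slc16a6 in ketamine to 0.93 for Slc12a8 in saline.

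In both comparisons, which share no library, 4 carriers were called, among them Slc26a8, Slc25a30 and Slc49a4. These 4 are 50% of the saline calls and 44.4% of the ketamine calls, and over all genes the shares were 37.7% and 60.3%. The 13 carriers called in either had the same direction in both, as did 83.7% of all genes called in either. Of all 34 carriers 30 did (88.2%), beside 67.1% of all genes.

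Slc26a8, an anion transporter of family 26 best known from testis, had a D2 bias at both treatments. Its level was 15.5 to 29.3 CPM with a median of 22.6 in the 10 D1 saline libraries, and 25.3 to 35.2 with a median of 31.1 in the 10 D2 saline libraries. In ketamine it was 14.9 to 29.1 with a median of 22.7 in D1, and 22.9 to 34.2 (median 29.3) in the 9 D2 libraries. The D1 and D2 libraries overlapped at both treatments, although the D2 mean was above the D1 mean in all 4 combinations of stage and treatment. The log2 fold change by edgeR was 0.46 (SE 0.09, adjusted p = 0.00164) in saline and 0.35 (SE 0.11, adjusted p = 0.0439) in ketamine. Without D1 diestrus ketamine library 28 it was 0.31 in ketamine and was not called (edgeR, adjusted p = 0.105), nor was it with a block of 8 consecutive library numbers, added after seeing the data (0.34, adjusted p = 0.125).

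Slc25a30, a mitochondrial carrier, was lower in D2 than in D1 libraries. D1 saline libraries lay at 23.3 to 31.9 CPM with a median of 28.2, and D2 saline libraries at 22.9 to 27.3 with a median of 24.4. Under ketamine, D1 libraries lay at 23.5 to 32.2 with a median of 27.9, and D2 libraries at 21 to 26.1 with a median of 22.2. At each treatment the D1 median lay above every D2 library, although the ranges overlapped. Slc25a30 had a log2 fold change of -0.17 (SE 0.05, edgeR adjusted p = 0.0239) in saline and -0.24 (SE 0.06, adjusted p = 0.005) in ketamine.

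Slc49a4, a lysosomal membrane carrier also known as DIRC2, showed the smallest called difference in saline. Its D1 libraries lay at 71.9 to 83.7 CPM with a median of 80.1 in saline and at 68.8 to 81.3 with a median of 78.4 in ketamine. Its D2 libraries lay at 68.2 to 83.3 with a median of 74.6 and at 64.6 to 80.7 with a median of 70.5. The ranges overlapped almost wholly. On the log2 scale D2 differed from D1 by -0.10 (SE 0.03, edgeR adjusted p = 0.0491) in saline and -0.14 (SE 0.04, adjusted p = 0.0319) in ketamine. The saline call was lost in the model of all libraries (-0.12, edgeR adjusted p = 0.122) and without D1 library 11 (-0.08) or 17 (-0.11), and the ketamine call without surrogate variables (-0.11, edgeR adjusted p = 0.135) or with that block (-0.11, adjusted p = 0.133).

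**Figure D3:**
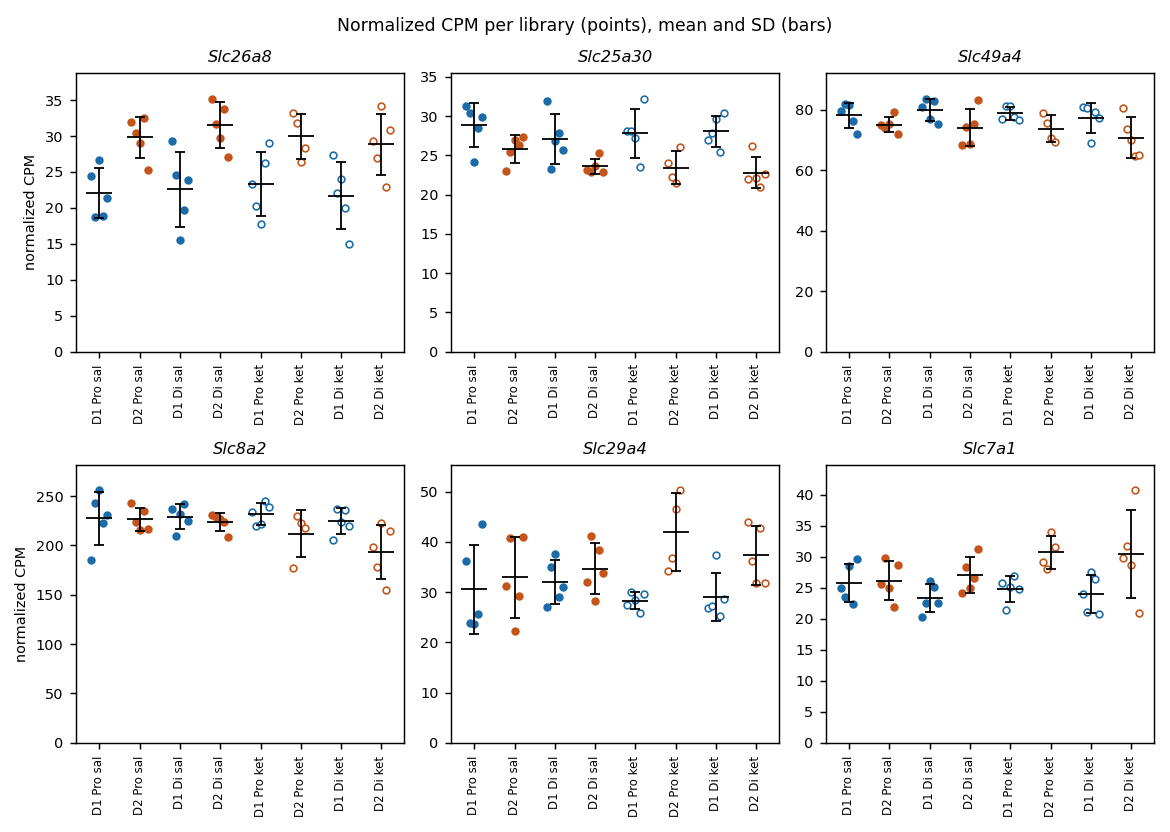
Normalized CPM of 6 called carriers in each library (points, filled for saline and open for ketamine, blue for D1 and orange for D2), with the mean and SD of each group of 5 (4 for D2 Pro ket). Slc29a4 and Slc7a1 separate D2 from D1 without overlap in proestrus ketamine rats, where D2 libraries of Slc29a4 lie at 34.2 to 50.4 CPM and D1 libraries at 25.9 to 30.1.

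Under ketamine, the carriers with the lowest adjusted p values were Slc29a4 and Slc7a1, both with a D2 bias. Slc29a4 was at 25.3 to 37.4 CPM with a median of 27.9 in D1 ketamine and at 31.8 to 50.4 with a median of 36.8 in D2 ketamine libraries. In saline it was at 23.6 to 43.5 with a median of 30.1 in D1 and at 22.3 to 41.2 with a median of 32.8 in D2. The highest D1 saline value, 43.5 CPM, was that of library 33, and the next was 37.6. The saline ranges overlapped almost wholly with or without it, and in ketamine a single D1 library, at 37.4 CPM, lay inside the D2 range. The log2 fold change by edgeR was 0.54 (SE 0.05, adjusted p = 6.19e-09) in ketamine and 0.15 (SE 0.11, adjusted p = 0.338) in saline.

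The saline value of Slc29a4 depended on the model and on single libraries. It was 0.46 (edgeR adjusted p = 0.000834) when all 39 libraries were fitted in 1 model, 0.32 (adjusted p = 0.00102) with the number of surrogate variables from num.sv, and 0.42 (adjusted p = 0.00162) without libraries 33 and 39. Leaving out each library in turn gave 0.05 to 0.46, and without library 33 alone it was 0.17 and not called (edgeR adjusted p = 0.318). It was called without D1 proestrus library 1 (0.46), 17 (0.37) or 25 (0.25), D2 proestrus library 5 (0.32) or D2 diestrus library 39 (0.39). A cell type by treatment interaction was not called: the D2 over D1 difference was larger in ketamine by 0.08 (SE 0.11, edgeR adjusted p = 1), and by 0.34 without surrogate variables (unadjusted p = 0.0389, adjusted p = 0.665).

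Slc7a1 was at 20.8 to 27.5 CPM with a median of 25 in D1 ketamine and at 21 to 40.8 with a median of 29.9 in D2 ketamine libraries. In saline the ranges were 20.3 to 29.6 and 21.9 to 31.2, with medians of 24.2 and 26. Without overlap between D1 and D2 libraries there were 3 carriers in proestrus ketamine rats, Slc7a1 and Slc29a4 among them, beside 5.4% of 14125 genes, 1 in diestrus ketamine rats, beside 4.55%, and 0 in proestrus saline rats, beside 6.18%. In proestrus ketamine rats the 4 D2 libraries of Slc7a1, at 28.1, 29.1, 31.6 and 34 CPM, were all above the 5 D1 libraries, at 21.4, 24.8, 25.2, 25.7 and 26.8. D2 exceeded D1 by 0.32 on the log2 scale (SE 0.06, edgeR adjusted p = 0.00064) in ketamine and 0.10 (SE 0.07, adjusted p = 0.3) in saline, where it was 0.31 and called in the model of all libraries (adjusted p = 0.00468). It was also called in saline with the number of surrogate variables from num.sv (0.20), without libraries 33 and 39 (0.22), and without library 1 (0.22), 17 (0.23) or 39 (0.21) alone.

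Slc8a2, the sodium-calcium exchanger NCX2, had a D1 bias in ketamine-treated females. It was at 205.4 to 244.8 CPM with a median of 228.6 in D1 ketamine and at 154.7 to 229.8 with a median of 214.6 in D2 ketamine. In saline its medians were 231.3 in D1 (184.8 to 256.3) and 225.2 in D2 (208.6 to 242.5). Slc8a2 changed by -0.18 on the log2 scale (SE 0.05, edgeR adjusted p = 0.0116) from D1 to D2 in ketamine, and by -0.03 (SE 0.03, adjusted p = 0.564) in saline. The 3 lowest D2 values, 154.7, 178 and 176.7 CPM, came from ketamine rats of both stages.

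In saline-treated females, Slc35a4, Slc29a3, Slc15a2 and Slc12a8 were called with a D2 bias and were not called in ketamine. Slc35a4 belongs to the family of nucleotide sugar transporters. Its D1 libraries lay at 40.8 to 52 CPM with a median of 44.6, and its D2 libraries at 46.1 to 56.4 with a median of 50.7. It was the only carrier separated in diestrus saline rats (5.72% of all genes), with D2 libraries at 49.4, 50, 50.4, 51 and 53.2 CPM and D1 libraries at 40.8, 43, 44.3, 44.7 and 47.7. In ketamine its ranges were 41 to 49.1 in D1 and 40.3 to 54.7 in D2. The log2 fold change by edgeR was 0.16 (SE 0.03, adjusted p = 0.00238) in saline and 0.05 (SE 0.05, adjusted p = 0.579) in ketamine. In the model of all libraries the saline value was 0.09 and not called (edgeR adjusted p = 0.314), and the call was also lost without library 1 (0.13) or 5 (0.11).

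Slc29a3, the lysosomal nucleoside transporter ENT3, lay at 1.53 to 3 CPM with a median of 2.72 in D1 saline and at 2.44 to 4.87 with a median of 3.51 in D2 saline. Slc15a2, the peptide transporter PEPT2, lay at 1.76 to 3.04 CPM with a median of 2.39 in D1 saline and at 2.17 to 7.58 with a median of 3.22 in D2 saline. Slc12a8 lay at 0.1 to 0.642 CPM with a median of 0.407 in D1 saline and at 0.277 to 1.2 with a median of 0.695 in D2 saline. The D1 and D2 saline ranges of all 3 overlapped. The median astrocyte, oligodendrocyte lineage, microglia and leukocyte, endothelial and mural, and fibroblast marker sums were higher in D2 saline libraries, as given above, and their part in these differences was not tested.

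The log2 fold change of Slc29a3 was 0.54 (SE 0.14, edgeR adjusted p = 0.0107) in saline and 0.16 (SE 0.13, adjusted p = 0.491) in ketamine. That of Slc15a2 was 0.67 (SE 0.19, adjusted p = 0.0157) in saline and 0.33 (SE 0.18, adjusted p = 0.264) in ketamine. That of Slc12a8 was 0.93 (SE 0.34, adjusted p = 0.0535) and 0.64 (SE 0.30, adjusted p = 0.181). All of these values were positive. In ketamine, D1 and D2 libraries lay at 1.95 to 4.54 and 2.37 to 6.25 CPM for Slc29a3, at 1.63 to 3.33 and 1.31 to 5.46 for Slc15a2, and at 0.106 to 0.877 and 0.381 to 1.1 for Slc12a8. The saline calls of these 3 low carriers depended on the model or on single libraries. In the model of all libraries the saline value by edgeR was 0.72 for Slc12a8 (adjusted p = 0.282) and 0.45 for Slc15a2 (adjusted p = 0.283), and with the number of surrogate variables from num.sv it was 0.78 for Slc12a8 (adjusted p = 0.115), none of them called. Without libraries 33 and 39 the saline value by edgeR was 0.33 for Slc15a2 (adjusted p = 0.428), 0.44 for Slc29a3 (adjusted p = 0.151) and 0.89 for Slc12a8 (adjusted p = 0.234), and none was called. With 1 library left out, the saline call was lost for Slc15a2 without library 1 (0.35), 5 (0.50), 17 (0.41) or 39 (0.35), and for Slc29a3 without library 1 (0.48), 17 (0.46) or 39 (0.45). Slc12a8 lost it without library 1 (0.91), 3 (0.81), 11 (0.86), 17 (0.89), 31 (0.75) or 39 (0.87). Slc12a8 gained a ketamine call without library 12 (0.81) or 26 (0.82), and Slc15a2 without library 8 (0.43) or 38 (0.58).

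**Figure D4:**
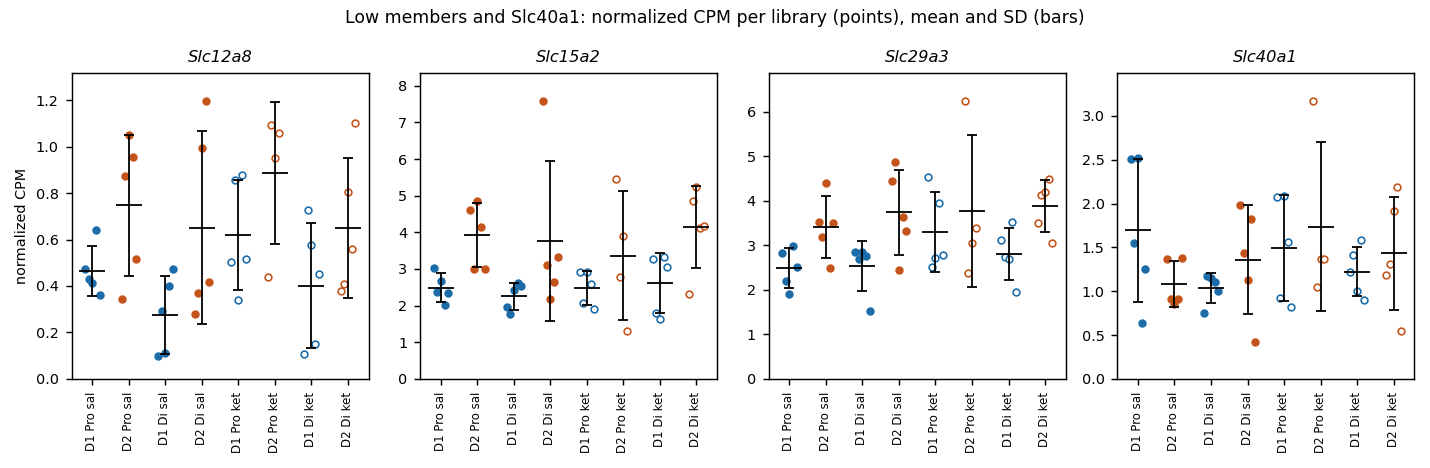
Normalized CPM of 3 low carriers called in saline and of Slc40a1 in each library, with the mean and SD of each group (colours as for the other plot by library). Library 7 of D2 diestrus saline stands apart for Slc15a2, at 7.58 CPM against 2.17 to 3.33 in the rest of its group.

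For the 9 carriers called in 1 of the cell type comparisons, the difference between treatments was tested by the interaction of cell type with treatment over all 39 libraries. None was called, and the unadjusted p ran from 0.204 for Slc8a2 to 0.712 for Slc15a2 (edgeR). The differences, ketamine minus saline, ran from -0.27 (SE 0.47) for Slc12a8 to 0.10 (SE 0.27) for Slc15a2. Without surrogate variables they ran from -0.38 for Slc12a8 to 0.34 for Slc29a4, with 0.23 for Slc7a1 (edgeR unadjusted p = 0.0521) and -0.16 for Slc8a2 (unadjusted p = 0.0479), and again none was called (adjusted p of 0.665 or more). These data therefore do not show that the D2 or D1 bias of a carrier differs between treatments, nor that it is equal.

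By function, calls were spread over several of the 9 classes, beside 28.8% of all genes called in saline and 18.0% in ketamine. No class was tested as a set, and classes of so few genes cannot be set against those shares. Carriers not reported here are not named below. Of the ion exchangers and anion carriers, Slc26a8 and Slc12a8 had a D2 bias in saline, and in ketamine Slc26a8 had a D2 bias and Slc8a2 a D1 bias. Of the mitochondrial carriers of family 25, Slc25a30 had a D1 bias at both treatments and Slc25a11 was not called. Both nucleoside and monoamine carriers of family 29 had positive values at both treatments, and 1 of the 2 was called in each. Of the 5 amino acid and peptide carriers, Slc15a2 was called in saline and Slc7a1 in ketamine. None of the 5 metal carriers (Slc30a4, Slc30a9, Slc30a10, Slc39a7 and Slc40a1) was called, and their values ran from -0.15 to 0.07 in saline and from -0.08 to 0.10 in ketamine. Of the other classes, the 4 vitamin and lysosomal carriers had 1 call in each treatment (Slc49a4), the 4 family 35 members 1 in saline (Slc35a4), and Slc37a1, a sugar phosphate carrier, none.

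The next question was whether repeated ketamine changed any of the 34 carriers within a cell type and stage. None of them was called in the 4 comparisons of ketamine with saline, in which 33 or 34 carriers were tested. Slc17a8, a vesicular glutamate transporter that the study reported as downregulated by ketamine in diestrus D1, had no paired identifier and was not among them. Among all genes, 1 of 13183 (0.00759%) was called in proestrus D1, 3 of 13214 (0.0227%) in diestrus D1, and 0 (0.0%) in proestrus D2 and in diestrus D2. At an unadjusted p under 0.05 the carriers numbered 0, 0, 0 and 1, beside 2.64% to 5.79% of all genes, and DESeq2 called no carrier and 16, 10, 1 and 0 of all genes. That 1 was Slc8a2 in diestrus D2, at -0.14 (SE 0.06, edgeR unadjusted p = 0.0425, adjusted p = 1), from 208.6 to 230.5 CPM in saline to 154.7 to 222.3 in ketamine, ranges that overlap. Beside it Slc16a6, a monocarboxylate carrier family member, had -0.48 (SE 0.27, unadjusted p = 0.098, adjusted p = 1).

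The carriers with the lowest p elsewhere also failed the correction. In proestrus D1 they were Slc29a3 at 0.41 (SE 0.21, edgeR unadjusted p = 0.0649) and Slc19a1, the reduced folate carrier, at 0.19 (SE 0.12, unadjusted p = 0.128), both with adjusted p of 0.852 or more. In diestrus D1 they were Slc4a4 at 0.21 (SE 0.11, unadjusted p = 0.0629) and Slc35a5 at 0.10 (SE 0.06, unadjusted p = 0.103). In proestrus D2 they were Slc30a4, a zinc carrier, at -0.11 (SE 0.06, unadjusted p = 0.0704) and Slc12a8 at 0.61 (SE 0.34, unadjusted p = 0.102). The median log2 fold change over the carriers lay between -0.06 and 0.03 in the 4 comparisons.

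Proestrus and diestrus were compared within each cell type and treatment. Again no carrier was called, nor any gene in any of the 4 comparisons (0.0% each), and DESeq2 called no carrier and 0 to 4 of all genes. At an unadjusted p under 0.05 there was 1 carrier in all, beside 3.45% to 4.08% of all genes: Slc30a4 in ketamine-treated D2 rats, at 0.14 (SE 0.06, edgeR unadjusted p = 0.0402, adjusted p = 0.998). Its proestrus libraries lay at 79.7 to 95.4 CPM and its diestrus libraries at 70.9 to 92.7. The ranges overlapped. The next was Slc40a1 in the same rats, at 0.54 (SE 0.27, unadjusted p = 0.0654).

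In saline D1 rats, Slc25a30 had 0.15 (SE 0.08, edgeR unadjusted p = 0.0618) and Slc46a3, a lysosomal carrier, 0.23 (SE 0.13, unadjusted p = 0.11). In saline D2 rats, Slc25a11 had -0.09 (SE 0.05, unadjusted p = 0.0588) and Slc4a4 0.17 (SE 0.09, unadjusted p = 0.0773). In ketamine D1 rats, Slc16a10, an aromatic amino acid carrier, had -0.66 (SE 0.38, unadjusted p = 0.0995) and Slc29a3 0.26 (SE 0.17, unadjusted p = 0.144). The medians over the carriers lay between -0.01 and 0.06.

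**Figure D5:**
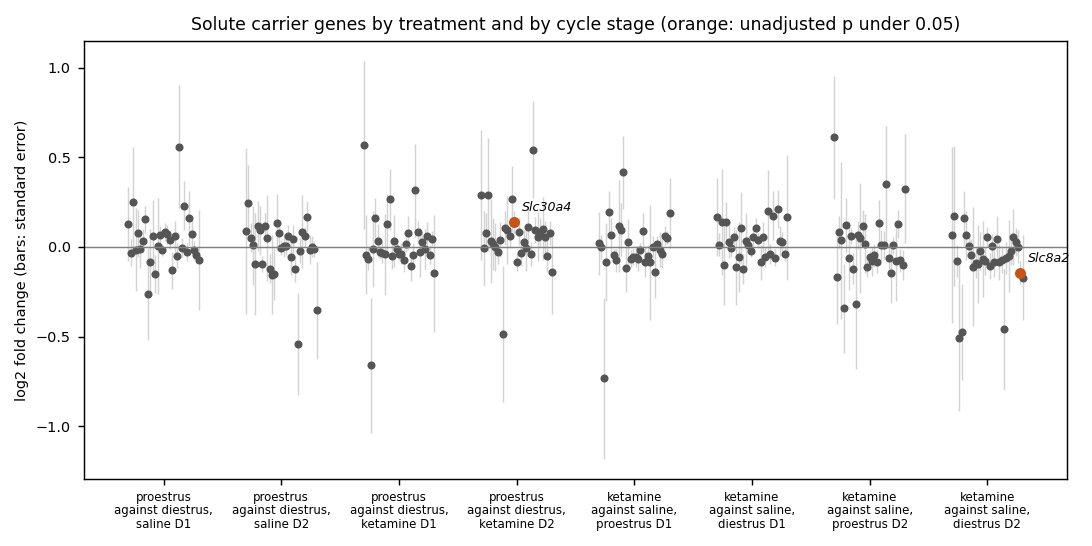
Log2 fold change with standard error of solute carrier genes (1 point each, 30 or 31 per comparison) between cycle stages and between treatments. Most points lie near 0, and the 2 at an unadjusted p under 0.05 are Slc30a4 (0.14) and Slc8a2 (-0.14), neither of which was called.

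Interactions asked whether stage acts alike in both cell types, or ketamine alike at both stages. None of the 34 carriers was called in the 4 interactions, and neither was any gene (0.0% in each). DESeq2 called no carrier and 0 to 6 of all genes, and at an unadjusted p under 0.05 there was 1 carrier, beside 1.75% to 4.91% of all genes. This was Slc40a1 in the interaction of cell type with stage in saline rats, at -1.20 (SE 0.44, edgeR unadjusted p = 0.0127, adjusted p = 1). Its D1 saline libraries had a mean of 1.7 ± 0.816 CPM (SD, n = 5) in proestrus and 1.04 ± 0.172 in diestrus, and its D2 saline libraries 1.08 ± 0.266 and 1.36 ± 0.624. The stage means were thus ordered oppositely in the 2 cell types, within overlapping ranges of 0.642 to 2.52 and 0.753 to 1.17 CPM in D1 and 0.849 to 1.38 and 0.417 to 1.99 in D2. In ketamine rats the proestrus and diestrus means were 1.49 ± 0.607 (n = 5) and 1.22 ± 0.283 in D1, and 1.74 ± 0.968 (n = 4) and 1.43 ± 0.644 in D2. The order of the D2 ketamine means rests on library 6, at 3.17 CPM, without which the proestrus mean was 1.26 ± 0.184 (n = 3).

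The remaining lowest p values were those of Slc16a6 and Slc46a3 for cell type by treatment, at -0.38 (SE 0.24, edgeR unadjusted p = 0.124) and -0.19 (SE 0.14, unadjusted p = 0.167). For ketamine by stage they were Slc35a5, of the nucleotide sugar family, and Slc25a30 in D1 rats, at -0.16 (SE 0.08, unadjusted p = 0.0508) and -0.16 (SE 0.08, unadjusted p = 0.0549). In D2 rats they were Slc40a1 at 0.83 (SE 0.40, unadjusted p = 0.0531) and Slc26a8 at 0.21 (SE 0.11, unadjusted p = 0.0801). All of these had an adjusted p of 0.972 or more.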

How the data were processed

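Polyribosomal mRNA was sequenced by the authors, and the libraries of 39 rats were analysed here. The authors trimmed reads with fastp 0.23.4, quantified them with Salmon 1.10.2 on mRatBN7.2 and summed the estimates by gene in tximport. What the authors deposited are these expected counts, already whole and unnormalized, which they modelled with DESeq2 1.42.1 and surrogate variables.

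Each comparison was fitted on all genes passing filterByExpr by group (minimum count 10) with TMM, 2 svaseq surrogate variables and edgeR's quasi-likelihood test, Benjamini-Hochberg adjustment over all genes, and a call at an adjusted p under 0.1 (R 4.3.3, edgeR 4.0.16, sva 3.50.0). The cell type models pooled both stages, with stage as a covariate. No replicate number is shared between groups in the labels. P-values measure the spread between rats. The steps were also run on simulated counts of independent libraries without a hidden factor. That run could therefore not test the surrogate variable step. Alternatives were no or other surrogate variables, DESeq2 1.42.0, other size factors, no filter, a 0.05 threshold, 1 model of all libraries, left-out libraries and, added after values were seen, a block of 8 consecutive library numbers.

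Named genes are those called, with both cell type values, and the 2 lowest p values in each other comparison. Printed beyond that rule, after values were seen, are the interaction values of carriers called at 1 treatment. The genes and lists were chosen with earlier results of these data known. A further 3 carriers enter the counts and are not reported here.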

Additional observations from a re-analysis of the deposited data

Results flagged for a closer look

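Among the totals and the 11 carriers examined (10 of those called, and Slc40a1), 6 of 96 sets of group values held a library far from the rest of its group by Dixon's criterion, where chance gives about 4.8. Library 39 of D2 diestrus saline had 2396517 total counts, the fewest of all. Library 40 of D2 diestrus ketamine had 16175294 total counts. Library 7 of D2 diestrus saline had 7.58 CPM of Slc15a2, against 2.17 to 3.33. Library 35 of D1 diestrus saline had 1.53 CPM of Slc29a3, against 2.68 to 2.86. Library 20 of D1 diestrus ketamine had 37.4 CPM of Slc29a4, against 25.3 to 28.5, and library 6 of D2 proestrus ketamine had 3.17 CPM of Slc40a1, against 1.05 to 1.37.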

How the results depend on the processing

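The count of carriers with a cell type difference in saline was 8, and 14 with the 5 surrogate variables from num.sv (11 with a D2 and 3 with a D1 bias), beside 28.8% and 25.8% of all genes. It ran from 5, without D1 proestrus saline library 1, to 12, without library 9, when each library was left out, beside 8.96% and 29.4% of all genes. The share of all genes was also 11.4% without library 17, 13.9% without library 39 and 17.7% without library 5. In ketamine the count was 9, and 8 to 10 with each library left out, beside 14.9% to 20.4% of all genes. Counts of carriers were 0 for ketamine, stage and interactions under every setting run. Called in all fits were Slc26a8 and Slc25a30 in saline (29 fits), and Slc29a4, Slc7a1, Slc25a30 and Slc8a2 among the 5 in ketamine (27 fits). Over the alternatives, 29 values of the named carriers lost a call and 18 gained one, with the same sign.

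The labels share no replicate number between groups and name no batch, but the library numbers run in 5 sets of 8 that hold each group once, except that the set of library 9 lacks D2 proestrus ketamine. A replicate block of these sets was added after seeing the data. The correlation across genes of the deviations from group means was above 0.1 in 14 of 30 pairs of libraries of 1 set in saline and 13 of 27 in ketamine. Its median was 0.096 and 0.098 within sets, above the -0.031 and -0.018 between sets. Not every pair exceeded 0.1, and the reported fits hold no such block. With the block, the carriers called were 10 in saline (the 8 and 2 more, Slc30a4 and Slc35f1) and 7 in ketamine, beside 29.5% and 15.2% of all genes. The calls of Slc26a8 (0.34, edgeR adjusted p = 0.125) and Slc49a4 (-0.11, adjusted p = 0.133) in ketamine were lost. No carrier was called in the other comparisons, with 0 to 45 of all genes, the most in proestrus D1 between ketamine and saline. The block also gave 0.0089 for Slc8a2 in saline and 0.44 for Slc16a10 between stages in ketamine D1 rats, both of opposite sign.

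The sign turned in 10 fits of differences that were not called, and the cause was not tested. Leaving out each library gave saline values of -0.083 to 0.020 for Slc8a2 (above 0 without libraries 9, 11, 13, 27 and 33). For cell type by treatment it gave -0.000758 to 0.23 for Slc15a2 (below 0 without library 6). Without surrogate variables Slc15a2 had -0.14 and Slc46a3 had 0.11 in that interaction. Depth limits the low carriers: Slc12a8 reached 10 counts in 19 of 39 libraries.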
